A study of Mus musculus with 47 samples.

Results

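The 8 genes described here, Prox1, Sp8, Nr2f1, Nr2f2, Npas1, Npas3, Adarb2 and Htr3a, are genes used to recognise interneurons of caudal and preoptic origin. They were picked by name, not by a threshold on measured values, among the 22800 gene symbols of the count table. They were followed in 26 of the 47 single cells of the table, which were 10 cells of the auditory cortex (AC), 13 cells of hippocampal area CA3 and all 3 cells of area CA1. The AC and CA3 columns are those that an earlier analysis of the same table had matched to cells drawn in the study's heat maps, and that match was not repeated here. The study counts more CA3 cells than these 13, so they are not its full CA3 set. Transcription factors are encoded by 6 of the 8 genes, whereas Adarb2 encodes a protein of the RNA-editing enzyme family and Htr3a a subunit of a serotonin-gated channel, so the name transcription factors does not cover these members.

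Each library held the cytosol of 1 neuron, aspirated through the patch pipette, and was read by RNA sequencing after Nextera XT library preparation. All cells of the set were labelled as NPY-positive, which means that a green fluorescent protein driven by the regulatory sequence of neuropeptide Y marked them in mice named both NPY-hrGFP and NPY-EGFP in the sources. The mice were 3 to 8 weeks old, and the AC cells lay in layers 1 and 2 and the CA3 cells in stratum lacunosum-moleculare. In the whole series 8 mice were used and no label ties a cell to a mouse, so a region counts as a single sample here, regions were compared without a test, and every SD is a spread over cells. Slices were coronal for AC and horizontal for CA3, so plane and region cannot be told apart.

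Depth ran from 1715012 to 6265431 reads per cell in AC, from 2229519 to 7949918 in CA3 and from 601781 to 3202430 in CA1. All 26 cells had reads on Gad1 and Npy, and the 4 GABAergic markers, Gad1, Gad2 and Slc32a1 among them, summed to between 3585 and 22890 reads per 1000000 reads on all genes (CPM) in each AC and CA3 cell. Markers of other cell types were present too. Summed per cell, 7 astrocyte genes reached 3015 CPM in AC, 660 in CA3 and 1683 in CA1, 5 microglial genes 3492, 228 and 36.6, and 5 oligodendrocyte genes 367, 955 and 354. The lists of 5 pyramidal, 4 dentate granule and 5 vascular genes stayed at or below 204, 593 and 81.5 CPM in every cell. Aqp4, Mog, Tmem119, Cldn5, Flt1 and Pdgfrb had 0 reads in all 26 cells. The AC cells N4, N42 and N46 and the CA1 cell N1 exceeded 1000 CPM on a list of another cell type. Differences between AC and CA3 for Prox1, Nr2f1 and Adarb2, and the number of members per cell, are also given without these 4 cells. Of the 21 columns outside the set, 15 had 0 Gad1 reads and 10 had over 10000 CPM on astrocyte or oligodendrocyte genes.

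Cortical and hippocampal interneurons are born in the medial and caudal ganglionic eminences (MGE and CGE) and in the preoptic area, and then migrate to their final layer. Cells from the MGE switch on Nkx2-1 and then Lhx6, while cells from the CGE and from part of the preoptic area keep Prox1 and, in varying degree, the nuclear receptors Nr2f1 and Nr2f2. Neurogliaform cells, the late-spiking type to which many NPY-positive neurons belong, are known to arise from more than 1 of these sources in the hippocampus.

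Nr2f1 and Nr2f2 are close relatives and are the members whose reads could be mistaken for each other, so the longest stretch that their transcripts have in common is shown. It is 59 bases long and lies in a coding exon at the zinc finger region that binds DNA, on the minus strand of GRCm38. It is shown from 5′ to 3′ with 20 bases of each gene on either side, 99 bases in all, at chr13:78198264-78198362 for Nr2f1 and chr7:70360032-70360130 for Nr2f2. Capitals mark the common bases.

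Nr2f1: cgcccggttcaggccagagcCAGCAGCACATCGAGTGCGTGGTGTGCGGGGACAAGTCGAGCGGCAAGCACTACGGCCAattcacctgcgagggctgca

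Nr2f2: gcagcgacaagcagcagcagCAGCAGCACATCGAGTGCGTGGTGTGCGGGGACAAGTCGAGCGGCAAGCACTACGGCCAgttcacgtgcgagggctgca

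The base next to the common run differs at each end, although most of the bases shown after the run are the same again. No more than 10 stretches of 50 bases were common to both genes, out of 5090 in Nr2f1 and 8582 in Nr2f2. Nr2f2 shared 7.35% of its stretches with any other gene, mostly with B130024G19Rik, which runs on the opposite strand over 643 bases of its exons. Adarb2 shared 2.07%, Nr2f1 1.30%, Prox1 1.00% and Npas3 0.553%, and Sp8, Npas1 and Htr3a shared none. Which strand the counting used is not given in the sources used here, so reads of Prox1, Nr2f1, Nr2f2 and Npas3 cannot be told apart from those of the antisense transcripts that overlap their exons by 83 to 643 bases.

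Adarb2 was the member read in most cells, Nr2f1 came next and Prox1 after it, while Sp8 was read in none of the 26. Prox1 was read in most AC cells, in all CA1 cells and in few CA3 cells, whereas Adarb2 and Nr2f1 were read in many cells of both. Nr2f2 had reads in AC and CA1, at very low level in AC, and Npas1, Npas3 and Htr3a had nearly all their CA3 reads in 1 cell.

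**Figure D1:**
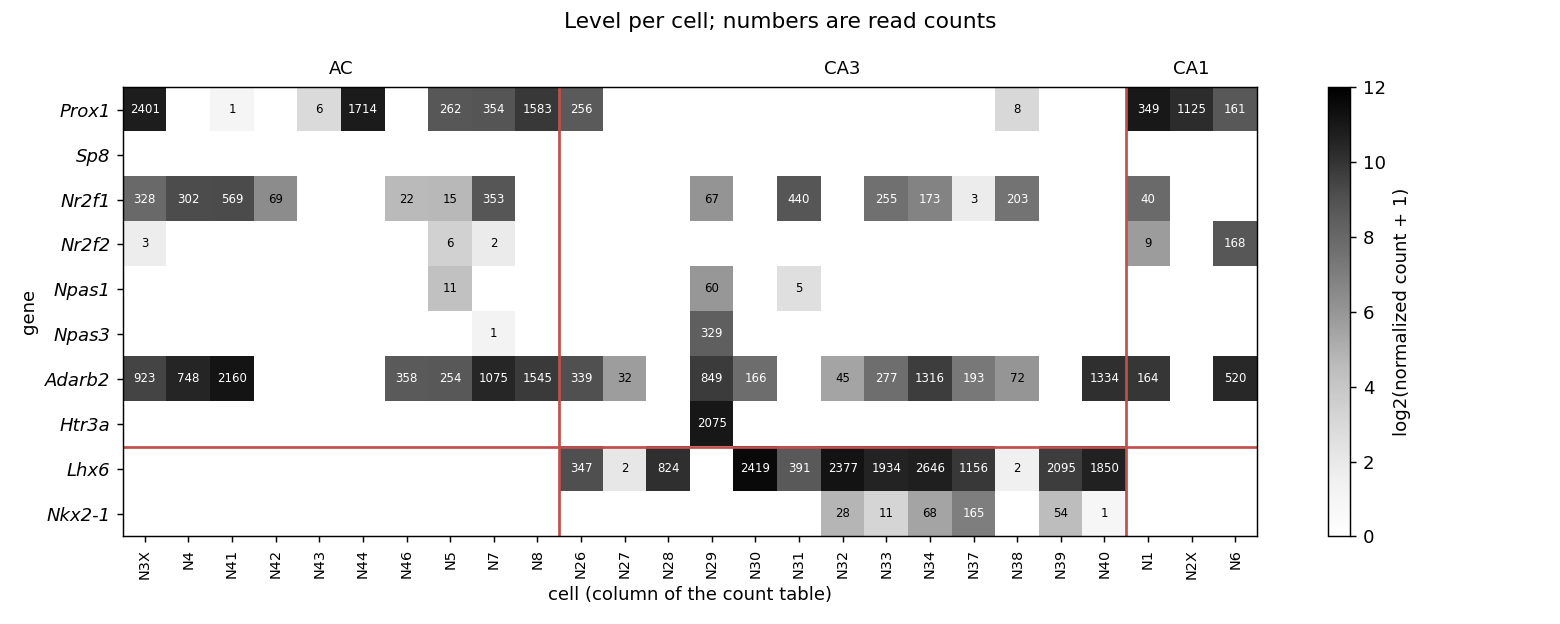
Level of the 8 members, and of Lhx6 and Nkx2-1 beneath the red line, in each of the 26 cells, as log2(normalized count + 1) on a grey scale with the read count printed in the box. Prox1 fills most of the AC and CA1 columns and 2 CA3 columns, and Lhx6 fills 12 of 13 CA3 columns and no AC or CA1 column.

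Prox1, a homeodomain protein that CGE-derived interneurons need to mature, lies on chromosome 1 of GRCm38 from 190118035 to 190170714. Its lowest, median and highest counts in AC cells were 0, 134 and 2401 reads, and the 7 of 10 cells with any (70.0%, exact Clopper-Pearson 95% interval 34.8 to 93.3%) had 1, 6, 262, 354, 1583, 1714 and 2401. In CA3 the lowest value and the median were 0 and the highest 256, with reads in 2 of 13 cells (15.4%, 1.92 to 45.4%), 256 in N26 and 8 in N38. Intervals on a share of cells cover the counting of cells only and take each cell as an independent draw. As cells may share a mouse, they set no bound for a region. The 3 CA1 cells had 161, 349 and 1125 reads. CA1 cells were thus all high, AC cells split into 5 high, 2 barely read and 3 at 0, and the AC and CA3 values overlapped through the zeros and through N26.

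Prox1 reads summed over cells made up 186 CPM in AC (181 to 190, the exact Poisson 95% interval), 5.40 in CA3 (4.77 to 6.10) and 325 in CA1 (309 to 341), a 34.4-fold higher share in AC than in CA3. On the scale of log2(normalized count + 1), used for every level below, the mean was 5.29 ± 4.88 (SD over cells, n = 10) in AC, 0.89 ± 2.46 (n = 13) in CA3 and 9.97 ± 1.18 (n = 3) in CA1. The AC mean exceeded the CA3 mean by 4.40, and the SD over AC cells is larger than that. The Poisson intervals cover counting error of reads only, and reads of amplified cDNA are not independent molecules. Across the 5964 genes read in 10 or more of the 23 AC and CA3 cells, the median difference was -0.91, and relative to it Prox1 differed by 5.31. Prox1, read in 9 of the 23 cells, is not among these genes, and relative to the median of -0.35 over all 13624 genes read in any of the 23 cells it differed by 4.75. Without the AC cells N4, N42 and N46, which had no Prox1 read, the difference was 6.66, and over all 19 AC and 21 CA3 cells so labelled it was 2.49.

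The CA3 cell N26 held 97.0% of the CA3 reads of Prox1 and also had 347 reads on Lhx6 and 339 on Adarb2. Prox1 is made by dentate granule cells as well, and among granule markers N26 had 1274 reads on Calb1, 31 on Slc17a7, 16 on Dsp and 0 on C1ql2, and was the cell of the set with Dsp reads. Its granule markers summed to 593 CPM, the highest value of the set. Calb1 made up 571 CPM of the sum and was also read in cells without Prox1, at 399 CPM in N34 of CA3 and 390 in N46 of AC. The part of granule cell RNA in the Prox1 reads of N26 was not tested. Leaving N26 out raised the difference between AC and CA3 to 5.04, and left 0.172 CPM of Prox1 in CA3.

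Sp8, a zinc finger factor of the CGE and the dorsal lateral eminence, lies on chromosome 12 from 118846329 to 118852576 and had 0 reads in all 26 cells. A count of 0 allows up to 0.0881 CPM in AC, 0.0614 in CA3 and 0.596 in CA1, the share that 3 reads would take in the region. Its relative Sp9, which shares its zinc finger type, was read in 7 AC, 9 CA3 and 1 CA1 cells, with 64.5, 31.4 and 7.95 CPM. Outside the set, the AC column N47 had 166 reads on Sp8.

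Nr2f1, the nuclear receptor also called Coup-TF1, lies on chromosome 13 from 78188973 to 78199757. The lowest, median and highest AC cells had 0, 45.5 and 569 reads, and 7 of 10 cells had between 15 and 569 reads. The CA3 values were 0, 0 and 440 in the same order, and the 6 of 13 cells with reads (46.2%, 19.2 to 74.9%) had 3, 67, 173, 203, 255 and 440. N1, with 40 reads, was the CA1 cell that had any, so without it CA1 held 0 Nr2f1 reads. Cells with over 100 reads were found in both regions, and the values of AC and CA3 overlapped over almost the whole range.

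Summed over cells, Nr2f1 took 48.7 CPM in AC (46.4 to 51.1), 23.4 in CA3 (22 to 24.7) and 7.95 in CA1 (5.68 to 10.8). Without N31 the CA3 share was 15.5 CPM, and without N2X, which had no Nr2f1 read, the CA1 share was 21.8. Mean levels were 5.08 ± 3.88 in AC, 2.96 ± 3.69 in CA3 and 2.63 ± 4.55 in CA1. The difference of 2.12 between AC and CA3 was less than either SD, and 3.02 relative to the median gene. With all labelled cells it was 0.01, as 8 of 19 AC cells and 9 of 21 CA3 cells then had Nr2f1 reads, and 1.20 relative to the median of that set.

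Of the 7 AC cells with Nr2f1 reads, 6 also had reads on Slc1a3, a glial glutamate transporter, and none of the 3 AC cells without Nr2f1 had them. With at least 10 reads on both genes, 5 AC cells were left. Slc1a3 reached 1952 reads in N46, 1622 in N41 and 1432 in N4 of AC, whereas CA3 had 1 read in all, in the cell N28 without Nr2f1. Summed over the 7 astrocyte markers, of which 6 had a read in AC and 3 in CA3, AC cells held 0.247 to 3015 CPM and CA3 cells 0 to 660, with Aqp4 at 0. Without N4, N42 and N46 the Nr2f1 difference was 1.41, and 2.12 relative to the median gene. The part of glial RNA in the Nr2f1 reads was otherwise not tested.

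Nr2f2, the nuclear receptor also called Coup-TF2, lies on chromosome 7 from 70351944 to 70366735. It had 2, 3 and 6 reads in 3 of 10 AC cells (30%, 6.67 to 65.2%), 0 in the other AC cells and 0 in all 13 CA3 cells (0 to 24.7%). The CA1 cells had 0, 9 and 168 reads. N6 of CA1 was therefore the cell with a clear count, and every AC count was below 10. The summed share was 0.323 CPM in AC (0.161 to 0.578), at least 5.26-fold higher than the limit of 0.0614 in CA3, and 35.2 CPM (30.2 to 40.7) in CA1. Without N5 the AC share was 0.155 CPM, and the CA1 share was 2.37 without N6 and 96.6 without N2X. All 5 cells with Nr2f2 reads also had reads on Prox1 and Adarb2. Of its relatives, Nr2f6 had reads in a single AC cell, N44, but in 8 of 13 CA3 cells, with 18.7 and 55.9 CPM.

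**Figure D2:**
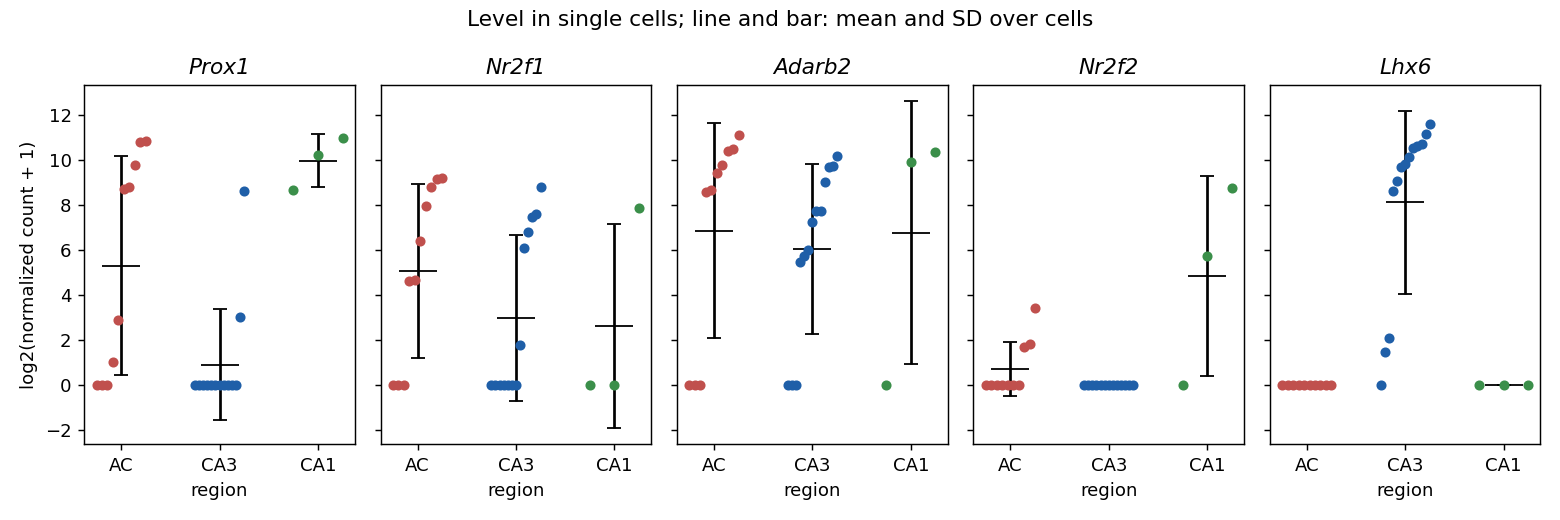
Level per cell of Prox1, Nr2f1, Adarb2, Nr2f2 and Lhx6, as log2(normalized count + 1), with 1 point per cell (10 AC, 13 CA3, 3 CA1) and the mean and SD over cells as lines. Prox1 means are 5.29 in AC, 0.89 in CA3 and 9.97 in CA1, while the Adarb2 means of 6.85, 6.04 and 6.76 lie close together, with SDs of 4.79, 3.76 and 5.86 and at least 1 cell at 0 in each region.

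Npas1 and Npas3 encode related factors of the basic helix-loop-helix PAS class that act in forebrain interneurons and their progenitors. Npas1, on chromosome 7 from 16455721 to 16477728, had 11 reads in the AC cell N5, 60 in the CA3 cell N29, 5 in the CA3 cell N31 and 0 in all other cells of the set. Npas3, on chromosome 12 from 53248677 to 54072175, had 1 read in the AC cell N7 and 329 in N29, with 0 elsewhere. Both genes were thus absent from most cells of each region, and N29 held 92.3% of the CA3 reads of Npas1 and all of those of Npas3. In CA3 Npas1 took 1.33 CPM (1.03 to 1.70) and Npas3 6.73 (6.03 to 7.50), of which 0.109 and 0 were left without N29. The level differences, AC minus CA3, were -0.23 for Npas1 and -0.53 for Npas3, and without N29 they were 0.21 and 0.12. The relatives Npas2 and Npas4, the latter an activity-induced gene, were read in 4 AC cells each and in 3 and 2 CA3 cells.

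Adarb2, whose product binds RNA like the editing enzymes of its family but has no known editing activity, marks the CGE-derived classes of cortical interneurons. It lies on chromosome 13 from 8202866 to 8768747. AC cells had 0 reads at the lowest, 553 at the median and 2160 at the highest, and the 7 of 10 cells with reads had 254, 358, 748, 923, 1075, 1545 and 2160. In CA3 these values were 0, 166 and 1334, and 10 of 13 had reads (76.9%, 46.2 to 95%), in ascending order 32, 45, 72, 166, 193, 277, 339, 849, 1316 and 1334. The CA1 cells had 0, 164 and 520. No cell lay between 0 and 32 reads, so presence did not depend on the choice between 1 and 10 reads, and the ranges of the 3 regions overlapped.

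Adarb2 took 207 CPM in AC (203 to 212), 94.6 in CA3 (91.9 to 97.4) and 136 in CA1 (126 to 146), which is 2.19-fold higher in AC than in CA3. The CA1 share rests on single cells, as N6 held 76.0% of its reads. It was 43.1 CPM without N6, below CA3, and 373 without N2X, above AC. Mean levels of 6.85 ± 4.79 in AC, 6.04 ± 3.76 in CA3 and 6.76 ± 5.86 in CA1 differed by less than the SD of any region. The difference between AC and CA3 was 0.81, and 1.72 relative to the median gene. It moved with single cells, those at 0 and those with high counts alike. It was 0.31 without N28, which had no read, 0.33 without N41, which had 2160, and 1.57 without N42, which had none, and it rose above 1 when any of N42, N43, N44, N26, N29, N34 and N40 was left out. It was also above 1 over all labelled cells (1.86), as a log2 ratio of summed CPM (1.13) and without N4, N42 and N46 (1.02). The 3 AC cells without Adarb2, N42, N43 and N44, were also the AC cells without a read on Mrpl20, a mitochondrial ribosomal protein. Mrpl20 was singled out as the nearest to Adarb2 in level among 9494 genes, so its shared zeros follow from that choice. They say nothing about missed detection, which was not tested.

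Htr3a, a subunit of the ionotropic serotonin receptor, marks most CGE-derived interneurons of the cortex. It lies on chromosome 9 from 48899213 to 48911099. It had 0 reads in all 10 AC cells (0 to 30.8%), in 12 of 13 CA3 cells and in all 3 CA1 cells, and 2075 reads in N29. This gave 42.5 CPM in CA3 (40.7 to 44.3), at least 482-fold above the AC limit of 0.0881, from 1 cell. Its partner subunit Htr3b had 0 reads in all 26 cells.

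N29 stood apart from the rest of CA3. It was the cell of that region without Lhx6 and the cell with most members, 5 in all, each with at least 10 reads: 67 on Nr2f1, 60 on Npas1, 329 on Npas3, 849 on Adarb2 and 2075 on Htr3a. It had 0 reads on Prox1, Nr2f2 and Sp8. Beyond the members, N29 had 9788 reads on the cannabinoid receptor gene Cnr1, 2125 on Ndnf and 469 on Reln, and 0 on Lamp5, Nos1 and Cck. Leaving it out brought the Htr3a difference to 0.00 and, as given above, turned the sign for Npas1 and Npas3.

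In all, 2 of the 8 members, Prox1 and Nr2f1, were higher in AC by at least 1 on the log2 scale, and 0 were higher in CA3. Over all labelled cells Adarb2 passed this size and Nr2f1 did not, and Npas3 (-1.59) was then higher in CA3 by that size. Among the 13624 genes read in any of the 23 AC and CA3 cells of the set, 13.6% were higher in AC by that size and 32.8% higher in CA3. The members' counts stand beside this background without a test, and nothing particular to them is read from either. Nr2f1 and Adarb2 were the 2 members read in 10 or more of the 23 cells, and 15.4% of the 5964 genes that passed this filter were higher in AC and 48.1% in CA3. For none of the 8 did the difference exceed the SD of both regions, and for none did the cells of AC and CA3 fall into ranges that do not overlap. The median difference over the 8 members was 0.35, with Sp8, which had no read, at 0.00. Over the 7 members with a read in the 23 cells it was 0.69, against -0.35 over the 13624 genes.

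Per kilobase of exon, the level that can be compared between genes, Prox1 came first in AC with 19.8 ± 26.7 CPM per kb (mean and SD over 10 cells), followed by Adarb2 with 16.2 ± 15.1 and Nr2f1 with 11.3 ± 14.1. No neighbours among these 3 lay apart by more than the larger of their SDs, and Npas1, Nr2f2 and Npas3 followed with 0.193, 0.0557 and 0.00739. In CA3, Htr3a ranked first with 24.2 ± 87.2 because of N29, and was followed by Adarb2 with 7.14 ± 8.75, Nr2f1 with 4.53 ± 7.41, Npas3 with 1.33, Prox1 with 1.07 and Npas1 with 0.520. In CA1 the order was Prox1 with 42.2 ± 26.8, Adarb2 with 17.7 ± 16.3, Nr2f2 with 5.86 ± 8.68 and Nr2f1 with 4.35 ± 7.54. In CA3 and CA1 too, no neighbours in the order lay apart by more than the larger of their SDs.

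Joint presence differed from cell to cell within a region. With at least 1 read required, AC cells had between 1 and 5 members with a median of 2.0, CA3 cells between 0 and 5 with a median of 2.0, and CA1 cells between 1 and 4 with a median of 3.0. Without the 4 cells rich in markers of another cell type the medians were 3.00 in AC, 2.00 in CA3 and 2.00 in CA1, so the order of AC and CA1 turned. With at least 10 reads required in all cells of the set, the medians were 2.0, 1.0 and 3.0. The 10 AC cells then fell into 7 combinations and the 13 CA3 cells into 6. In AC these were Nr2f1 with Adarb2 in N4, N41 and N46, Prox1 with both in N3X and N7, the same with Npas1 in N5, Prox1 with Adarb2 in N8, Prox1 alone in N44, Nr2f1 alone in N42 and none in N43. In CA3, Adarb2 stood alone in 5 cells, Nr2f1 and Adarb2 came together in 3, N31 had Nr2f1 alone, N26 had Prox1 with Adarb2, N29 had its 5 members, and N28 and N39 had none. No combination with Prox1 was held by more than 2 cells of a region.

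**Figure D3:**
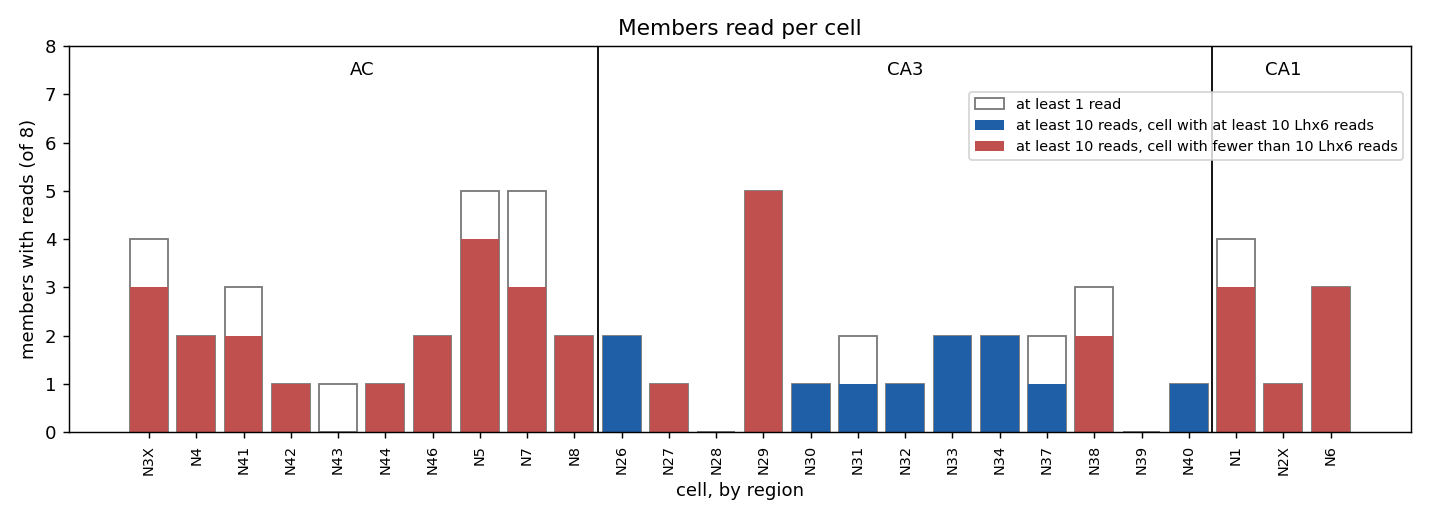
Number of the 8 members read in each cell, with open bars for at least 1 read and filled bars for at least 10 reads, blue where the same cell had at least 10 Lhx6 reads and red where it had fewer. All AC and CA1 bars are red, and 8 of the 11 CA3 cells with a filled bar are blue.

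Lhx6, the factor that follows Nkx2-1 in the MGE lineage, had reads in 12 of 13 CA3 cells but in 0 AC and 0 CA1 cells. Consequently 10 CA3 cells had reads on Lhx6 and on at least 1 member, 8 of them with at least 10 reads on both. Adarb2 and Lhx6 were read together in 9 CA3 cells, Nr2f1 and Lhx6 in 5, and Prox1 and Lhx6 in 2, N26 and N38. With at least 10 reads these numbers were 7, 3 and 1. N38 had 2 Lhx6 reads beside 203 on Nr2f1 and 72 on Adarb2, and N27 had 2 beside 32 on Adarb2. The CA3 cell N40 had 1334 Adarb2 reads and 1850 on Lhx6, so both genes were high in 1 library. Across the 13 CA3 cells the level of Adarb2 correlated with that of Lhx6 at Pearson's r = -0.11 and that of Nr2f1 at r = -0.31, a description only, since the cells differ in depth and may share mice.

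**Figure D4:**
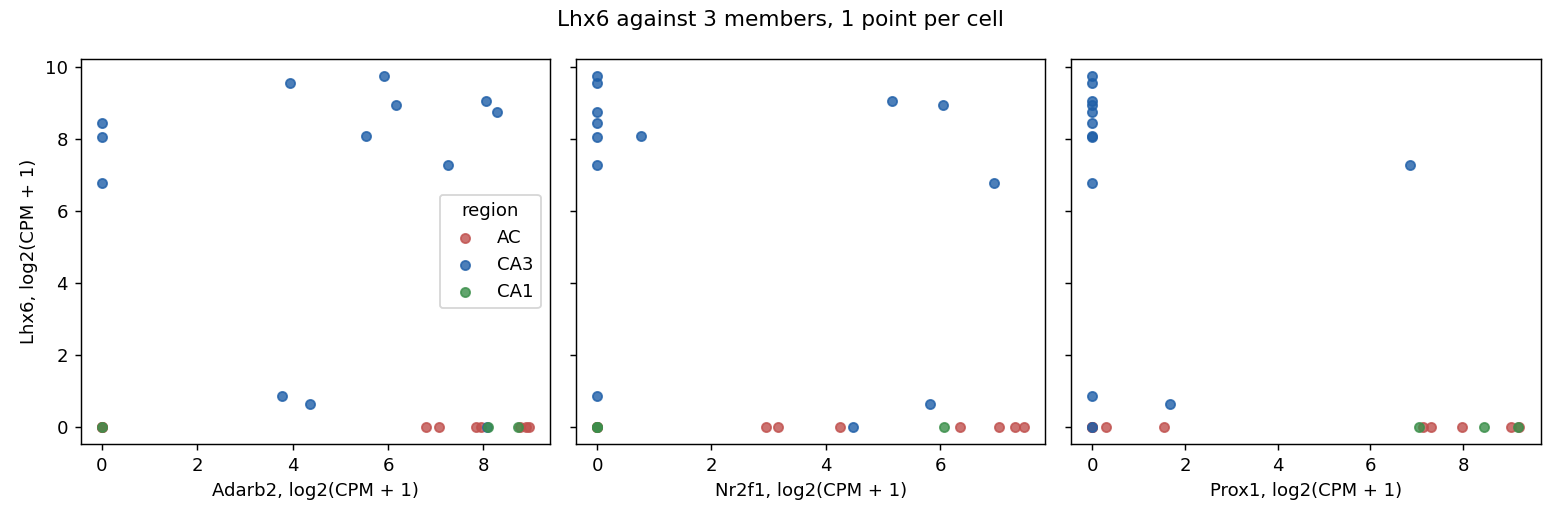
Lhx6 against Adarb2, Nr2f1 and Prox1, each axis as log2(CPM + 1), with 1 point per cell in AC (red), CA3 (blue) and CA1 (green). All AC and CA1 cells lie on the line of 0 Lhx6, whereas CA3 cells with Lhx6 spread from 0 to high Adarb2 and Nr2f1, and 2 of them have Prox1.

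Prox1 and Ndnf, a secreted factor that marks neurogliaform cells of layer 1, were read in the same 7 of 10 AC cells, and neither was read in N4, N42 and N46. With at least 10 reads, 5 AC cells had both, and N41 and N43 had 2478 and 1096 reads on Ndnf beside 1 and 6 on Prox1. All 3 CA1 cells had both genes. In CA3 the genes parted, with Prox1 in N26 and N38 and Ndnf in N29. The 3 AC cells without Prox1 and Ndnf are the AC cells with over 1000 CPM on markers of another cell type, and the part of this in the split was not tested.

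The fixed lists give the surroundings of these genes, again by differences of at least 1, AC against CA3, with no test. Of 8 relatives of the members, Npas2 (1.09) and Npas4 (1.52) were higher in AC and Nr2f6 (-2.83) higher in CA3. Adar, the ubiquitous editing enzyme, was read in every AC and CA3 cell and had the same mean level of 7.22 in both regions. Of 15 other factors of GABAergic, CGE and preoptic lineage, 2 were higher in AC, Dlx2 (2.61) and Nfix (3.10), and 4 higher in CA3, among them Dlx5 (-3.34), Zeb2 (-3.42) and Nfib (-1.26). Among the preoptic factors Hmx3 and Dbx1 had 0 reads in all 26 cells, as had the progenitor factor Gsx2, and Nkx6-2 was read in 1 AC, 5 CA3 and 1 CA1 cells with at most 24 reads in CA3. Of 7 MGE factors, Tox2 (1.48) and Tox3 (2.28) were higher in AC, Lhx6 (-8.11) and Nkx2-1 (-1.99) higher in CA3, and Lhx8 had 0 reads.

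Of 10 markers of CGE interneuron types, 4 were higher in AC, Ndnf (5.41), Cnr1 (3.17), Reln (2.69) and Lamp5 (1.38), and 2 higher in CA3, Cck (-5.50) and Id2 (-2.38). For Cnr1 the summed share went the other way, with 104 CPM in AC and 210 in CA3, of which N29 held 95.3%. Vip, Calb2 and Sncg, which mark other CGE-derived types than neurogliaform cells, had 0 reads in the 23 cells. Of 5 MGE markers 0 were higher in AC and 2 higher in CA3, Lhx6 and Pvalb (-1.18). Of the 4 GABAergic markers Slc32a1 (-2.31) was higher in CA3 and none higher in AC. List medians were 0.22 for the relatives, 0.00 for the other factors, for the MGE factors and for the CGE markers, -0.61 for the MGE markers and 0.14 for the GABAergic markers.

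By likeness of level over the 26 cells, among 9494 genes read in at least 5 of them, the genes nearest to Prox1 were 2010111I01Rik (r = 0.79), Dscaml1 (0.75) and Strada (0.74). For Nr2f1 they were Atm (0.65), Plec (0.64) and Zfp142 (0.63), and for Nr2f2 Amt (0.82), Bmpr1a (0.79) and Tgfb2 (0.77). Amt and Nr2f2 were read together in 2 cells, and within AC their r was -0.28. For Adarb2 they were Mrpl20 (0.74), Erp29 (0.71) and Map1a (0.71), and Mrpl20 and Erp29 were read in all 19 cells that had Adarb2. These values are the highest of many and share libraries and depth, and they describe the 26 cells only. Between the 4 members read in at least 5 cells, r over the 26 cells ran from -0.07 for Prox1 and Nr2f1 to 0.52 for Prox1 and Nr2f2. Within AC it was -0.32 and 0.52 for these pairs, 0.58 for Nr2f1 and Adarb2, 0.33 for Nr2f2 and Adarb2, 0.24 for Nr2f1 and Nr2f2 and 0.07 for Prox1 and Adarb2. Within CA3 Nr2f1 and Adarb2 gave 0.05.

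In the columns outside the set the members were read in other company. Adarb2 had 7383 reads in N47, 5770 in N48 and 4031 in N51 of AC, equal to 1184, 1124 and 2155 CPM and above every cell of the set. N48 had 0 Gad1 reads, and N51 had 3797 reads on the glutamatergic marker Slc17a7 and 827 on Prox1. N45 of AC had 1302 Lhx6 reads and 94 on Nr2f1, and N36 of CA3 had 4528 Lhx6 reads and no member.

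Npas3 and Prox1 were also read in columns rich in glial genes. Of the 6 columns with over 10000 CPM on astrocyte markers, 3 had Npas3, with 111 reads in N22 and 28 in N13 of CA3 and 19 in N12 of the dentate gyrus. Of the 5 columns with over 10000 CPM on oligodendrocyte markers, 3 had Prox1, with 19 reads in N18 and 15 in N23 of CA3 and 30 in the NPY-negative cell N16. None of these 6 columns had a read on Gad1. The CA3 column N14 had 43 reads on Npas1, 17 on Adarb2 and 10 on Npas3.

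**Figure D5:**
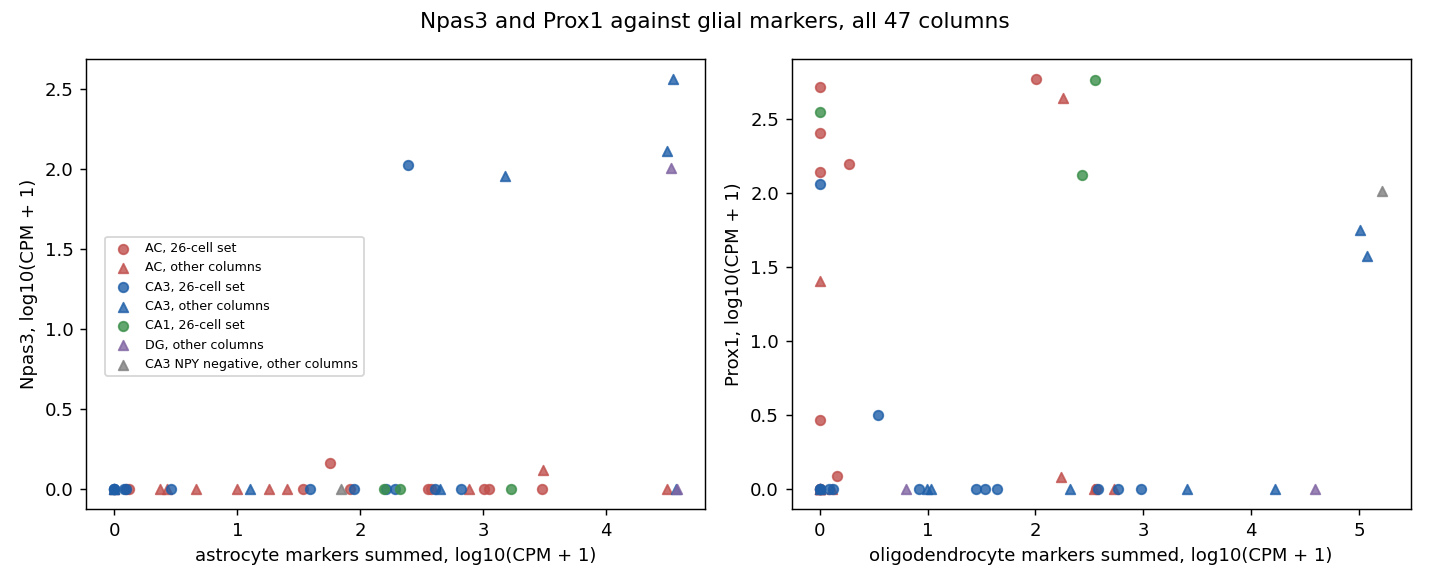
Npas3 against summed astrocyte markers (left) and Prox1 against summed oligodendrocyte markers (right) in all 47 columns, each axis as log10(CPM + 1), circles for the 26-cell set and triangles for the other columns. Npas3 lies above 50 CPM in N29, in 3 columns with over 10000 CPM on astrocyte markers and in N14, and Prox1 is read in 3 of the 5 columns rich in oligodendrocyte markers.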

How the data were processed

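The values are raw counts of reads per gene symbol as the authors deposited them, not normalized. The paper's methods name Trimmomatic and Flexbar for trimming, STAR for alignment to Ensembl GRCm38 and HTSeq for counting, whereas the submitters' processing notes name featureCounts. Counts of identifiers with 1 symbol were averaged. Of 22800 symbols, 7613 had no read. Counts were divided by size factors of scran 1.30.0 (computeSumFactors, pools of 10 and 20, over the 26 cells; R 4.3.3), and levels are log2(normalized count + 1). CPM uses all reads of a cell or region. Differences of at least 1 are spoken of by size. No test between regions was run, because no label ties a cell to a mouse. The count test of edgeR was therefore not used, and edgeR 4.0.16 and DESeq2 1.42.0 gave alternative size factors. Other steps used Python 3.11.15, numpy 2.4.6, pandas 2.3.3 and scipy 1.17.1, and figures matplotlib 3.10.9. The steps were tested on simulated data. Coordinates and exon lengths came from GENCODE vM21 of GRCm38.

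Members, gene lists (relatives, other lineage factors, MGE factors, GABAergic, CGE, MGE, pyramidal, granule, astrocyte, oligodendrocyte, microglial and vascular markers) and the likeness rule (the 3 genes of highest Pearson r for each member read in at least 5 cells) fixed which genes are named, and were chosen with earlier results of these data known. Mrpl20 was singled out after its values were seen, as the gene nearest to Adarb2 by likeness of level. Values of 4 genes from these lists are not reported here, but list counts include them. Alternatives were other size factors, pseudocounts of 10 and 0.1, summed CPM, thinning to 1700000 reads (seed 1), 10 reads for presence, all labelled cells and leaving out each cell. The counts of the AC columns N4 and N4X had a chi-square per degree of freedom of 2.24, against at least 44.4 in 399 other pairs of a region, so they were counted as 1 cell among all labelled cells, averaged for level differences and with N4X left out of shares and summed reads.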

Additional observations from a re-analysis of the deposited data

Results flagged for a closer look

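Npas1 in AC had 1 cell above 0, N5 with 11 reads and a level of 4.22. Npas3 in AC likewise had N7 with 1 read and a level of 1.18. In both, the gap to the next cell equals the whole range (ratio 1.00, limit 0.466), as must happen when all other cells are at 0, whatever the value. The ratio therefore says nothing about these cells, and the rate of about 1 in 20 that chance gives for it does not apply. The levels of 6 members in AC were looked at in this way.

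The other values come from columns that enter no comparison between regions. Npas3 in the dentate gyrus cell N12 was at 99.7 CPM (19 reads, limit 15.7 CPM from 3 reads). Prox1 in the NPY-negative CA3 cell N16 was at 103 CPM (30 reads, limit 10.3 CPM). N12 was 1 of the 6 columns rich in astrocyte markers and N16 1 of the 5 rich in oligodendrocyte markers, and the part of glial RNA in these values was not tested.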

How the results depend on the processing

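Under 10 other settings the differences kept their sign for Prox1 (2.49 to 6.66), Nr2f1 (0.01 to 2.93), Adarb2 (0.58 to 1.86), Npas1, Npas3 and Htr3a, while Nr2f2 was -0.02 over all labelled cells. Nr2f1 fell below 1 over all labelled cells, and Adarb2 rose above 1 there (1.86), with summed CPM (1.13) and without the 4 cells rich in other markers (1.02). Beside the summed CPM values below, Npas3 was higher in CA3 by at least 1 over all labelled cells (-1.59). Htr3a was so with a pseudocount of 0.1 (-1.10). Leaving out 1 cell gave 3.78 to 5.04 for Prox1, 1.66 to 2.68 for Nr2f1, 0.39 to 0.77 for Nr2f2, -0.66 to 0.21 for Npas1, -0.64 to 0.12 for Npas3, 0.31 to 1.57 for Adarb2 and -0.92 to 0.00 for Htr3a. Of the recomputed differences, 5 moved by more than 1 SD over cells and 226 by less, a wide tolerance that changes of sign can also stay within. The 5 were Nr2f2 with a pseudocount of 0.1 (1.59) and, as log2 ratios of summed CPM, Nr2f2 (2.40), Npas1 (-2.04), Npas3 (-7.84) and Htr3a (-8.91). For Nr2f2 and Htr3a these are set by the limit of 3 reads in the region at 0, so they are lower bounds on the size of the ratio. For Npas3 the AC side is 1 read, and the 229-fold higher share in CA3 has a counting interval of 40.9 to 9084. In CA3, N29 held most reads on Npas1 and all on Npas3 and Htr3a. The median over all filtered genes moved between -1.29 with a pseudocount of 0.1 and -0.10 with summed CPM, and was -0.60 with DESeq2 factors. Thinned to 1700000 reads, the median number of members in CA1 was 1.00, because N1 and N6 were too shallow and 1 cell was left. Over all labelled AC cells, 1 had a member together with Lhx6 (N45). The median number of members in CA3 was 1.00 over all labelled cells. Leaving out the 4 cells with over 1000 CPM of other markers, and each cell in turn from the summed CPM, was chosen after seeing the data. Levels under the limit set by 3 reads per region were not detectable at this depth. No paired analysis was possible because the numbers in the cell names mark single cells, not replicates shared between regions, and no comparison between regions comes from a test.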
